A study of Homo sapiens with 6 samples.

Results

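The genes examined here are the 10 that encode the mTOR kinase complexes and their direct regulators: MTOR, RPTOR, RICTOR, MLST8, DEPTOR, TSC1, TSC2, RHEB, EIF4EBP1 and RPS6KB1. They were chosen by gene symbol as a functional set, and all 10 of the 10 symbols were found among the 26490 rows of the deposited count table. They were compared by RNA-seq between SW403 cells with normal IRS2 expression (genotype label WT, 3 control libraries) and SW403 cells with IRS2 knockdown (3 libraries). SW403 is an established human cell line, labelled as colon adenocarcinoma. Both groups were cultured for 24 h in DMEM with 10% fetal bovine serum and received no treatment, so serum growth factors were present throughout. The labels write NS for the control and KO for the knockdown samples in their descriptions, and do not say by what means IRS2 was lowered. The series is about IRS2 in brain metastasis of colorectal cancer. Whether replicate cultures derive from independent knockdown lines is not given, so the p-values measure the spread between these cultures only.

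The mTOR kinase works in complexes that share the kinase and its subunit MLST8. In mTORC1 it is joined by RPTOR (raptor), which recruits substrates, and in mTORC2 by RICTOR. DEPTOR binds and inhibits both. Insulin and IGF1 signals pass from their receptors through IRS adaptor proteins to PI3K and AKT, and AKT phosphorylates TSC2. The TSC complex, formed by TSC1 and TSC2, keeps the small GTPase RHEB in its inactive form, and active RHEB switches on mTORC1 at the lysosome. mTORC1 then phosphorylates the translation repressor 4E-BP1, product of EIF4EBP1, and the S6 kinase encoded by RPS6KB1. Much of this control acts by phosphorylation, which RNA-seq does not measure; the values below are transcript levels.

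The control libraries held 11816973 to 12585013 counts and the knockdown libraries 14329348 to 18114656, with no overlap in depth between the groups. IRS2, the targeted gene, was at 32.1, 34.6 and 31.8 CPM in control and at 13.1, 12.4 and 12.1 CPM in knockdown libraries 1 to 3, a log2 fold change of -1.39 ± 0.07 (SE). CPM are counts per 1000000 reads of a library, after its size was adjusted by a TMM factor that corrects for differences in composition. Of 12 colon epithelial markers, 6 reached 1 CPM in some library: EPCAM, KRT8, KRT18, KRT19, CDX2 and VIL1. KRT20 and CDX1 had 0 counts in every library and CDH1, the E-cadherin gene, had 0 to 5. CDH17, LGALS4 and GPA33 did not reach 1 CPM either, so the markers go against the colon epithelial label in part; the identity of the line was not tested, and its name is used here as the labels give it. Some of these markers differed between the groups: KRT19 (log2 fold change -0.47) and EPCAM (-0.21) were lower and CDX2 (0.14) was higher in knockdown cells, all past the edgeR threshold. KRT8 (-0.05), KRT18 (-0.05) and VIL1 (0.35) did not pass (edgeR adjusted p 0.132, 0.209 and 0.0999). Over all tested genes, 38.5% passed. None of the 4 endothelial or 6 immune markers reached 1 CPM. The 4 neural markers summed to 7.61 to 8.02 CPM in control and 4.38 to 6.34 CPM in knockdown libraries, nearly all of it SYP, which was lower in knockdown (-0.57, edgeR adjusted p 0.00581). The 8 fibroblast markers summed to 8.85 to 27.4 CPM in control and 5.86 to 7.46 CPM in knockdown libraries, with the highest sum in control library 1. COL1A1 (-1.15) and COL3A1 (-1.71) were lower past the threshold. COL1A1 was at 15.2, 5.70 and 5.60 CPM in control and at 4.29, 3.67 and 4.04 CPM in knockdown. COL3A1 rested on few reads, with 34, 19 and 5 counts in control and 6, 3 and 14 in knockdown, and its groups overlapped. The part of these markers in the results was not tested. In bulk RNA, fewer cells expressing a gene and less of its RNA per cell cannot be told apart.

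Of the 10 genes, MTOR was higher and TSC1 was lower in knockdown cells, and the other 8 missed the threshold of 0.05 on the p-value of the edgeR quasi-likelihood F-test adjusted over all 13832 tested genes. MTOR rose 1.21-fold, and this call held under all 19 alternatives. TSC1 fell 1.12-fold, and that call was lost under 13 of 19. Over all tested genes, 38.5% passed the same threshold, 19.3% higher and 19.2% lower, and 41.3% passed where a gene averaged 100 counts or more. Against this background, 2 of 10 is no excess of calls. The median log2 fold change was -0.0050 over the 10 genes and -0.0039 over all tested genes. The median absolute log2 fold change was 0.09 over the 10 genes and 0.14 over all tested genes. All 10 passed the filter on low counts, and 9 of them averaged 400 counts or more. Of the 13832 tested genes, 10449 averaged 100 counts or more. The absolute medians thus come from sets of unlike depth and were not matched for it.

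Per kilobase of transcript, the 10 genes spanned over 2 orders of magnitude in control cells. EIF4EBP1 was at 93.7 ± 4.46 and RHEB at 91.2 ± 2.74 CPM per kb (SD, n = 3 each), and their control values overlapped. MLST8 followed at 43.7 ± 1.08 CPM per kb (SD, n = 3). MTOR, at 15.04 ± 0.720 CPM per kb, and TSC2, at 13.6 ± 0.464 CPM per kb (SD, n = 3 each), did not overlap in control, with 14.3 as the lowest MTOR and 14.2 as the highest TSC2 value. RPS6KB1, at 8.53 ± 0.508, and RPTOR, at 8.39 ± 0.0762 CPM per kb (SD, n = 3 each), overlapped. TSC1 was at 3.80 ± 0.196 and RICTOR at 3.05 ± 0.125 CPM per kb (SD, n = 3 each), without overlap. DEPTOR was lowest at 0.564 ± 0.157 CPM per kb (SD, n = 3). The mTORC1-defining subunit RPTOR therefore had a higher transcript level per length than the mTORC2-defining subunit RICTOR in every control library, while the kinase stood above both. The lengths are those of 1 canonical transcript per gene, from 827 nt for EIF4EBP1 to 9533 nt for RICTOR, and other isoforms in use would shift these levels.

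**Figure D1:**
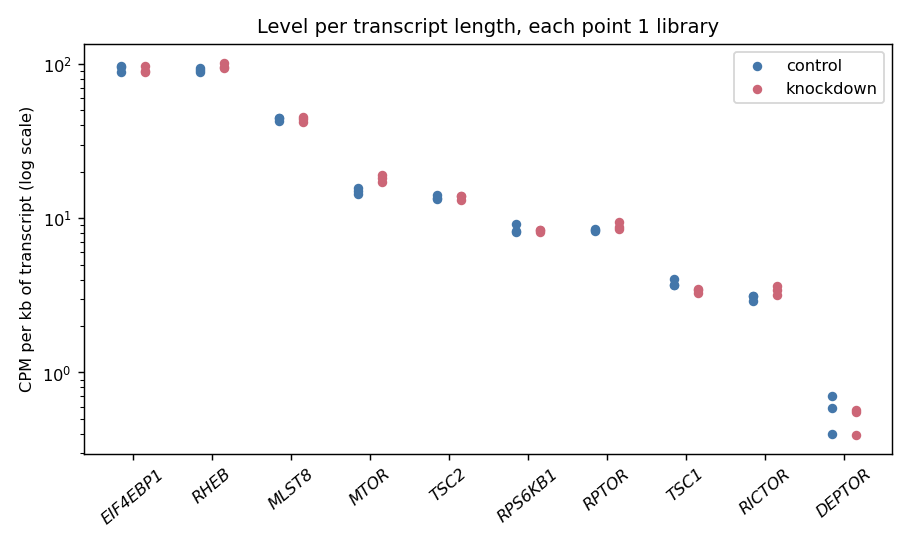
CPM per kb of canonical transcript (log axis) for the 10 genes, ordered by their control mean; each point is 1 library, control in blue and knockdown in red. EIF4EBP1 and RHEB lie highest, with control means of 93.7 and 91.2 CPM per kb, and DEPTOR lowest at 0.564.

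The catalytic subunit was the member that differed most clearly. MTOR lies on the minus strand of chromosome 1 (GRCh37, 11166592 to 11322613), and its canonical transcript has 58 exons. It was at 124.9, 131.1 and 137.5 CPM in control libraries 1 to 3 and at 158.3, 167.2 and 148.8 CPM in the knockdown libraries. Every knockdown value lay above every control value. Control cells averaged 131.2 ± 6.28 CPM and knockdown cells 158.1 ± 9.17 CPM (SD, n = 3 per group). The log2 fold change was 0.27 ± 0.04 (SE; 95% interval 0.18 to 0.36), with an edgeR adjusted p of 9.08e-05. The difference is modest within the experiment: 27.7% of tested genes had a larger absolute fold change, and MTOR ranked 1332 by p-value. The antisense gene MTOR-AS1, which overlaps 89 nt of its exons, had 0 counts in every library.

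The MLST8 subunit, which binds the kinase domain in both complexes, had an estimate near 0. MLST8 lies on chromosome 16 (GRCh37, 2254249 to 2259454, plus strand; 9 exons). It was at 74.3, 73.9 and 71.0 CPM in control and at 69.8, 72.9 and 75.4 CPM in knockdown, and the groups overlapped over nearly their whole range. Its log2 fold change was -0.0056 (95% interval -0.10 to 0.09; edgeR adjusted p 0.938), an interval that does not reach the estimate for MTOR.

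The subunits that define each complex both had positive estimates that missed the threshold. RPTOR lies on chromosome 17 (GRCh37, 78518619 to 78940171, plus strand; 34 exons). It was at 56.8, 57.4 and 57.9 CPM in control and at 64.4, 60.2 and 58.6 CPM in knockdown, which is a separation without overlap but with a gap under 1 CPM. The log2 fold change of RPTOR was 0.09 (95% interval -0.01 to 0.19; edgeR adjusted p 0.166). RICTOR lies on chromosome 5 (GRCh37, 38938022 to 39074504, minus strand; 38 exons). It was at 27.8, 29.9 and 29.7 CPM in control and at 32.6, 34.4 and 30.4 CPM in knockdown, again without overlap and with knockdown library 3 closest to control. For RICTOR the log2 fold change was 0.16 (95% interval 0.02 to 0.29; edgeR adjusted p 0.0608). It passed under 4 of 19 alternatives, among them the fit without knockdown replicate 3 (log2 fold change 0.21, edgeR adjusted p 0.0189) and the one in which trends with the length and GC content of transcripts were removed (0.21, edgeR adjusted p 0.00677).

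The balance between the complexes was compared as the log2 ratio of RICTOR to RPTOR CPM within each library. It was -1.03, -0.94 and -0.96 in control and -0.98, -0.81 and -0.95 in knockdown, and the groups overlapped. The difference of 0.07 gave an exact two-sided permutation p of 0.5 over samples, and 0.5 after adjustment over the 4 ratios computed. The smallest p that 3 against 3 allows is 0.1, and the 4 ratios were added after values were seen.

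DEPTOR was close to the limit of what these libraries measure. The gene lies on chromosome 8 (GRCh37, 120885957 to 121063157, plus strand; 9 exons). It had 13, 23 and 18 counts in control and 21, 24 and 18 counts in knockdown, or 1.02, 1.82 and 1.504 CPM against 1.48, 1.42 and 1.01 CPM. The groups overlapped almost fully. Its log2 fold change was -0.16 with a 95% interval from -0.77 to 0.44 (edgeR adjusted p 0.698), so a change of the size seen in MTOR in either direction was not detectable at this depth.

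The TSC complex, the inhibitor of RHEB, showed a small fall in 1 subunit. TSC1, also called hamartin, stabilises the complex, and lies on chromosome 9 (GRCh37, 135766735 to 135822261, minus strand; 23 exons). It was at 34.6, 31.7 and 31.7 CPM in control and at 29.5, 29.8 and 28.2 CPM in knockdown. All 3 knockdown values lay below all 3 control values, with control library 1 the highest. The log2 fold change was -0.16 ± 0.06 (SE; 95% interval -0.29 to -0.04), with an edgeR adjusted p of 0.0405. The estimate stayed between -0.19 and -0.12 over the alternatives. The adjusted p ranged from 0.0178 to 0.267 over them, and it was above 0.05 in 5 of the 6 fits that left out 1 library each, the exception being the fit without control replicate 3. GFI1B, which overlaps 53 nt of the TSC1 exons on the other strand, had 4 to 5 counts in control and 0 to 1 in knockdown libraries.

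TSC2, or tuberin, carries the activity that turns RHEB off, and its estimate was near 0. TSC2 lies on chromosome 16 (GRCh37, 2097968 to 2139492, plus strand; 42 exons), near MLST8. It was at 90.9, 86.5 and 85.2 CPM in control and at 89.1, 89.0 and 84.0 CPM in knockdown, with overlapping groups. Its log2 fold change was -0.0043 (95% interval -0.09 to 0.09; edgeR adjusted p 0.950). PKD1 overlaps 784 nt of the TSC2 exons on the opposite strand. The library kit is not labelled as a stranded one and the counting is not stated to use strand, so reads there cannot be assigned to either gene with certainty. PKD1 itself averaged 73.1 ± 2.29 CPM in control cells against 72.4 ± 4.39 in knockdown cells (SD, n = 3 per group). The same limit holds for MLST8, where BRICD5 overlaps 201 nt of the exons on the opposite strand. BRICD5 averaged 4.85 ± 0.374 CPM in control cells and 4.14 ± 0.351 in knockdown cells (SD, n = 3 per group). RPTOR and RPS6KB1 overlap other protein-coding genes on their own strand, by 60 and 149 nt. Of the members, only RHEB and EIF4EBP1 had no exon overlap in the annotation used.

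The log2 ratio of TSC1 to TSC2 was -1.39, -1.45 and -1.43 in control and -1.59, -1.58 and -1.57 in knockdown. The ratio was lower in all 3 knockdown libraries, by 0.16, without overlap. The exact two-sided permutation p was 0.1, the smallest this design can give, and 0.2 after adjustment over the 4 ratios. The ratio was added after values were seen, with TSC1 lower and TSC2 near 0, so this p is no independent support. TBC1D7, the third subunit of the complex, averaged 14.95 ± 1.59 CPM in control cells against 13.7 ± 0.543 in knockdown cells (SD, n = 3 per group), a log2 fold change of -0.13 that did not pass (edgeR adjusted p 0.290).

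RHEB, the GTPase that activates mTORC1, was the most abundant member by counts. It lies on chromosome 7 (GRCh37, 151163098 to 151217206, minus strand; 8 exons). It was at 192.3, 186.4 and 181.1 CPM in control and at 195.8, 193.0 and 208.4 CPM in knockdown; the highest control and lowest knockdown values nearly touched. The log2 fold change was 0.09 (95% interval 0.02 to 0.17), with an edgeR adjusted p of 0.0541, on the far side of the threshold by a narrow margin. It passed under 7 of 19 alternatives, with estimates between 0.06 and 0.12 over all of them. Those 7 included the fits without control replicate 1 (edgeR adjusted p 0.0395) and without knockdown replicate 2 (0.0492). The paralogue RHEBL1 averaged 4.95 ± 0.838 CPM in control cells against 5.56 ± 0.498 in knockdown cells (SD, n = 3 per group), which did not pass (edgeR adjusted p 0.395).

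The mTORC1 substrates among the members did not pass the threshold. EIF4EBP1 lies on chromosome 8 (GRCh37, 37888052 to 37917883, plus strand; 3 exons) and encodes the repressor that binds the cap-binding factor eIF4E when it is not phosphorylated. It was at 80.6, 78.5 and 73.4 CPM in control and at 73.6, 74.5 and 80.0 CPM in knockdown, spanning the same range in both groups. Its log2 fold change was -0.027 (95% interval -0.13 to 0.07; edgeR adjusted p 0.698). RPS6KB1 lies on chromosome 17 (GRCh37, 57970407 to 58027935, plus strand; 15 exons). It was at 45.1, 44.4 and 49.5 CPM in control and at 45.4, 44.1 and 45.6 CPM in knockdown, with control library 3 above the rest. The estimate for RPS6KB1 was a log2 fold change of -0.040 (95% interval -0.15 to 0.07; edgeR adjusted p 0.600).

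**Figure D2:**
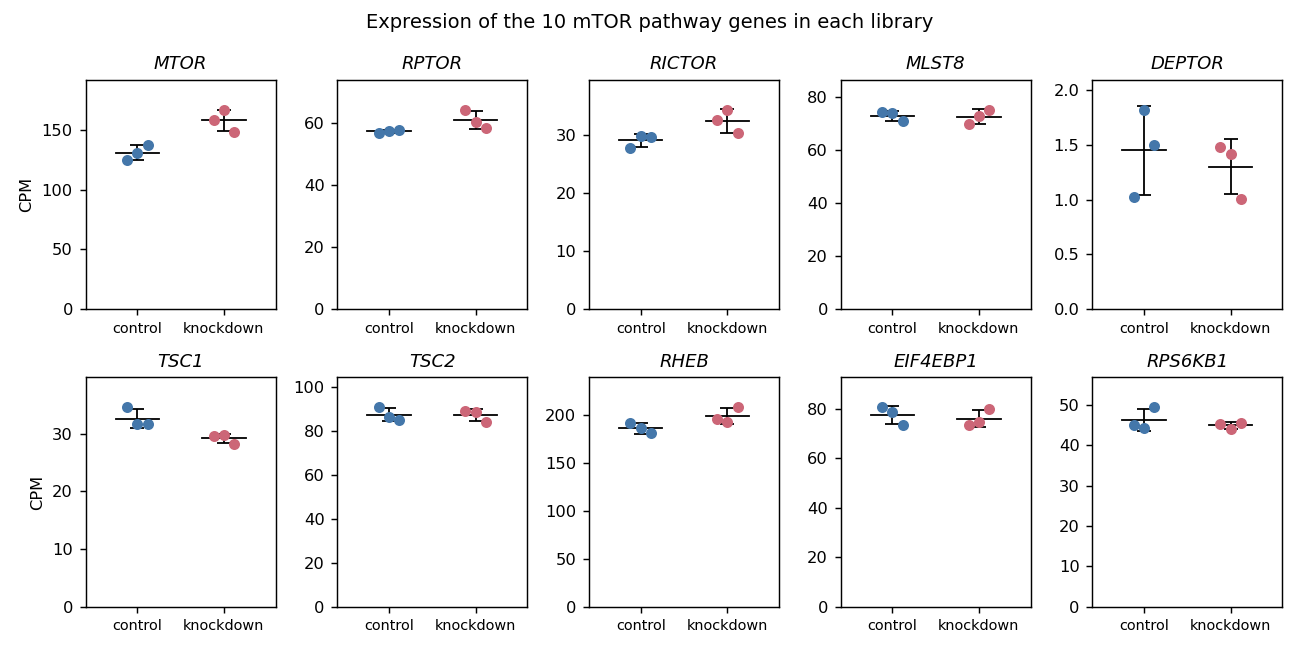
CPM of each of the 10 genes in the 3 control (blue) and 3 knockdown (red) libraries, on axes that start at 0; horizontal lines are group means and bars are 1 SD. MTOR is the member whose knockdown values stand clearest above control (148.8 to 167.2 against 124.9 to 137.5 CPM), while MLST8, TSC2, EIF4EBP1, RPS6KB1 and DEPTOR overlap between groups.

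The paralogues of both substrates passed the threshold where the members did not. EIF4EBP2, which encodes another 4E-BP repressor, was at 196.2, 195.3 and 193.7 CPM in control and at 214.2, 209.7 and 211.5 CPM in knockdown (log2 fold change 0.12 ± 0.03 SE, edgeR adjusted p 0.00581). The log2 ratio of EIF4EBP1 to EIF4EBP2 was -1.33 ± 0.0601 in control and -1.48 ± 0.0706 in knockdown (SD, n = 3 each). The groups did not overlap but nearly touched, with -1.4 in control library 3 and -1.403 in knockdown library 3. The exact two-sided permutation p of this ratio was 0.1, or 0.2 after adjustment over the 4 ratios. With 3 against 3 this test cannot fall below 0.1, so no difference in the ratio was shown. EIF4EBP3 was too low to be tested, with 0 to 27 counts in a library. RPS6KB2, the other S6 kinase gene, fell from 51.3 ± 4.25 CPM to 42.6 ± 1.90 (SD, n = 3 per group; log2 fold change -0.27 ± 0.06 SE, edgeR adjusted p 0.00118). The log2 ratio of RPS6KB1 to RPS6KB2 overlapped between groups, from -0.29 to 0.08 in control and from 0.02 to 0.17 in knockdown (exact two-sided permutation p 0.3, adjusted 0.4). This p lies above 0.1, the smallest that 3 against 3 can give, so no difference between the paralogues was shown. The 95% intervals of the fitted log2 fold changes were -0.151 to 0.0719 for RPS6KB1 and -0.398 to -0.1485 for RPS6KB2. These intervals overlap by a narrow margin.

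Counted without a model, the control and knockdown CPM of 5 of the 10 genes did not overlap: MTOR, RPTOR, RICTOR and RHEB with knockdown above, and TSC1 with knockdown below. The groups did not overlap for 47.6% of all tested genes, so 5 of 10 is near the background. For 6 of the 10 genes, RPTOR, MLST8, TSC2, RHEB, EIF4EBP1 and RPS6KB1, the whole 95% interval of the log2 fold change lay within 0.2 of 0. That of RHEB, from 0.02 to 0.17, lay above 0. The share of all tested genes within this limit was not counted, so the count does not set these genes apart.

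**Figure D3:**
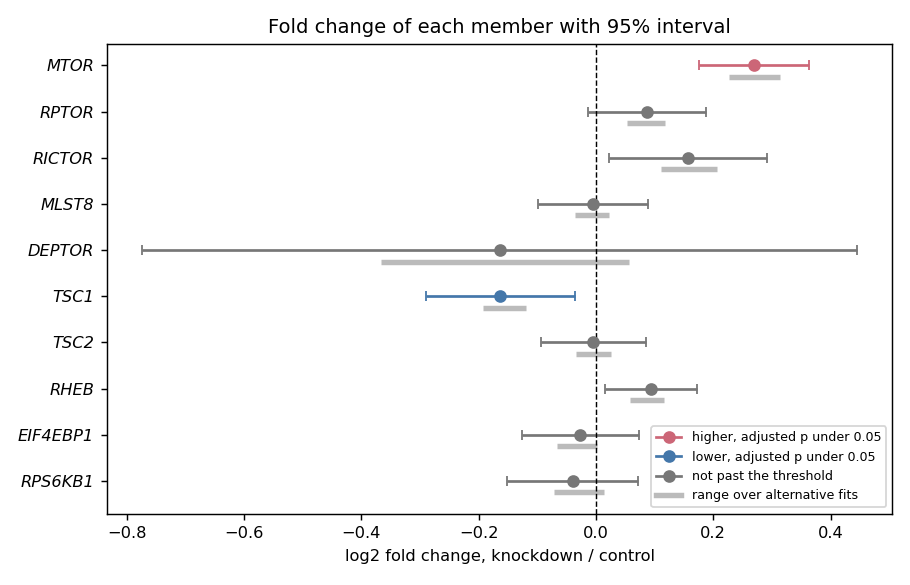
Log2 fold change of knockdown over control for each of the 10 genes, with its 95% interval from the edgeR fit (bars) and the range of the estimate over the alternative fits (grey). MTOR, at 0.27, is the gene past the threshold on the higher side and TSC1, at -0.16, on the lower side; the interval of DEPTOR is the widest, from -0.77 to 0.44.

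The genes around the complexes were then described from 4 lists that hold 96 genes, of which 92 were tested. In these lists 24 genes were higher and 12 lower, 39.1% against the background of 38.5%. Their median log2 fold change was 0.02, and that of all tested genes was -0.0039. The count of lower genes moved with the scaling, to 20 with library size alone and 19 with upper-quartile factors. Under these scalings 40.8% and 43.9% of the calls over all genes were higher, against 50.2% in the main fit.

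Among 10 partners of the complexes, which include assembly factors, subunits and the rapamycin-binding protein FKBP1A, 1 gene passed. That is 10%, against 38.5% of all tested genes. AKT1S1, which encodes the raptor-binding inhibitor PRAS40, fell from 148.2, 148.0 and 140.5 CPM in control to 111.8, 117.9 and 118.8 CPM in knockdown (log2 fold change -0.32 ± 0.04 SE, edgeR adjusted p 1.94e-06). All 3 knockdown values lay far below the control values, and the call held under all 19 alternatives. PRAS40 and DEPTOR are both inhibitors that bind the complex, and the transcript of the first was the abundant one, at 82.0 CPM per kb in control.

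Of 31 nutrient-sensing genes, which carry amino acid signals to mTORC1 at the lysosome, 30 were tested, 7 were higher and 5 were lower. These calls make up 40% of the genes tested, near the 38.5% of all tested genes. SESN3, a sestrin that inhibits mTORC1 through the GATOR complexes, rose from 31.2 ± 1.22 CPM to 45.2 ± 3.42 (SD, n = 3 per group; log2 fold change 0.53). FNIP1, the partner of folliculin, rose from 47.3 ± 1.49 CPM to 62.6 ± 0.982 (SD, n = 3 per group; 0.40). SEH1L, a GATOR2 and nuclear pore subunit, rose from 187.7 ± 3.44 CPM to 218.6 ± 8.08 (SD, n = 3 per group; 0.22). Each of these 3 had an edgeR adjusted p of 6.09e-05 or less, SEH1L setting that limit.

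On the lower side of the same list, NPRL3, a subunit of the inhibitory GATOR1 complex, fell from 62.9 ± 3.001 CPM to 47.1 ± 0.625 (SD, n = 3 per group; log2 fold change -0.42, edgeR adjusted p 1.59e-06). SESN2, a stress-induced sestrin, fell from 12.4 ± 0.126 CPM to 10.2 ± 0.360 (SD, n = 3 per group; -0.28, edgeR adjusted p 0.0196). Members of the sestrin family thus passed in opposite directions. LAMTOR5, a subunit of the Ragulator scaffold, had a log2 fold change of -0.14 (edgeR adjusted p 0.0350). The other 4 Ragulator genes, LAMTOR1 to LAMTOR4, named after their values were seen, had estimates from -0.14 to -0.05 and did not pass. The call of SESN2 was lost without control replicate 1, control replicate 2 or knockdown replicate 1 (edgeR adjusted p 0.0505 to 0.0637). That of LAMTOR5 was lost without those or knockdown replicate 2 (0.0561 to 0.161). Over all 19 alternatives, the call was lost under 5 for SESN2 and under 12 for LAMTOR5. After the length and GC correction the log2 fold change of LAMTOR5 was -0.08 (edgeR adjusted p 0.185).

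Of 27 genes of the growth factor and energy inputs, 26 were tested, 10 were higher and 3 were lower. That is 50% of the genes tested, against 38.5% of all tested genes (19.3% higher and 19.2% lower), a difference that was not tested. PIK3CD, which encodes a catalytic subunit of PI3K, rose from 7.08, 6.18 and 5.01 CPM to 10.3, 10.8 and 10.7 CPM (log2 fold change 0.79 ± 0.12 SE, edgeR adjusted p 4.46e-05). RPS6KA1 and RPS6KA3, which encode RSK kinases that can phosphorylate TSC2, had log2 fold changes of 0.37 and 0.21, and both passed. DDIT4, or REDD1, an inhibitor of mTORC1 that acts through the TSC complex, fell from 15.6, 18.4 and 14.0 CPM to 9.64, 9.05 and 13.0 CPM (log2 fold change -0.59 ± 0.12 SE, edgeR adjusted p 0.000825). Its knockdown library 3 lay close to control library 3, and the estimate ranged from -0.78 to -0.48 over the alternatives. PRKAB1, an AMPK subunit gene, had a log2 fold change of -0.22 (edgeR adjusted p 0.0262), and did not pass without control replicate 1 or 2 or without knockdown replicate 2 or 3 (0.0525 to 0.176). INPP4B, a phosphoinositide phosphatase gene with 10 to 34 counts in a library, had one of -0.87 (edgeR adjusted p 0.0435). It rested on few reads: the estimate was -0.51 without control replicate 2 and -0.59 without knockdown replicate 2. It did not pass without control replicate 2, knockdown replicate 1 or knockdown replicate 2 (edgeR adjusted p 0.0659 to 0.320). Over all alternatives, the call was lost under 9 of 18 for INPP4B and under 6 of 19 for PRKAB1.

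Of 28 substrates and effectors, 26 were tested, 7 were higher and 3 were lower. The share that passed was 38.5%, as over all tested genes (38.5%). ULK1, the kinase that starts autophagy and is held off by mTORC1, fell from 33.1 ± 0.637 CPM to 24.2 ± 1.19 (SD, n = 3 per group; log2 fold change -0.45). PDCD4, a translation inhibitor that S6 kinase marks for degradation, fell from 48.8 ± 4.03 CPM to 36.7 ± 2.56 (SD, n = 3 per group; -0.41). RPS6KB2, described above, was the other lower gene. PATL1, which encodes an mRNA decay factor, rose from 117.4 ± 2.73 CPM to 137.8 ± 0.329 (SD, n = 3 per group; 0.23). NDRG1 encodes a protein whose phosphorylation, which RNA-seq does not measure, is used as a readout of SGK kinases. Its log2 fold change was 0.18, and that of PRKCD, a protein kinase C gene, was 0.22. Each of the 5 genes given here besides RPS6KB2 had an edgeR adjusted p of 0.00261 or less, PRKCD setting that limit.

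**Figure D4:**
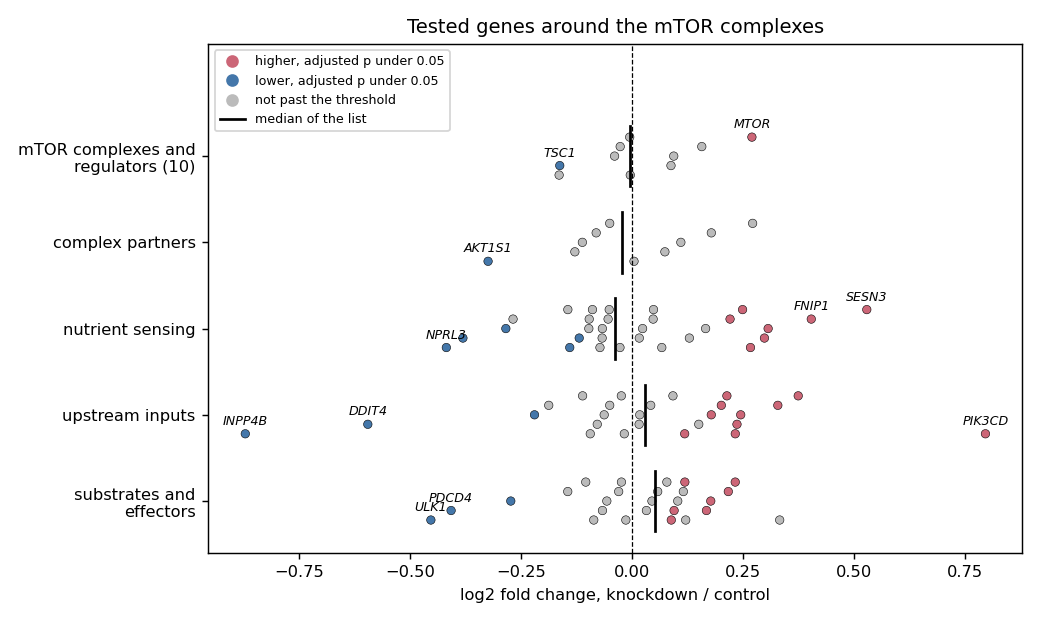
Log2 fold change of knockdown over control for every tested gene of the 10 members and the 4 surrounding lists; each point is 1 gene, red where higher and blue where lower at an adjusted p under 0.05, grey otherwise, and black bars are list medians. The members lie between -0.16 and 0.27, inside the span of the upstream inputs, which runs from INPP4B at -0.87 (few reads; -0.51 without control replicate 2) to PIK3CD at 0.79.

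The genes whose levels followed MTOR most closely over the 6 libraries were ERC1, NBAS and ELK3, with Pearson correlations of log2 CPM of 0.996, 0.996 and 0.995 among 10448 genes that averaged 100 counts or more. Of those genes, 1056 correlated above 0.9 with MTOR. The 6 libraries form 2 groups that differ, so such values include the group difference. ERC1, NBAS and ELK3 also ranked the libraries within each group in the same order as MTOR. How much of the correlation comes from either was not tested, and the values are given as a description.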

How the data were processed

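RNA-seq libraries were made from 1000 ng of total RNA. The authors deposited whole-number read counts per gene symbol. They also deposited a normalized signal, equal to those counts divided by 1 constant per library, from 0.847 to 1.25. Median-of-ratios size factors recomputed over the 16213 genes it lists gave the same constants. The submitters' processing notes name STAR 2.6.1a, Salmon, DESeq2 and the build hg19, without roles. The annotation and strand setting are not given in the sources used here. Coordinates and transcript lengths were taken from GENCODE 44 on GRCh37; whether the authors counted on it is not stated.

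The counts were tested with edgeR 4.0.16 in R 4.3.3 (TMM, filterByExpr, quasi-likelihood F-test, group as the only term), with Benjamini-Hochberg adjustment over 13832 genes and a threshold of 0.05. The standard error is the absolute log2 fold change over the square root of F, and intervals use it with the fit's degrees of freedom. Library totals ran from 11816973 to 18114656. No replicate pair agreed within counting error (chi-square per degree of freedom 1.42 to 2.78). The scripts were tested on simulated data.

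The members and lists were chosen with earlier results of these data known. Named genes were IRS2, the members, the 3 higher and 3 lower genes with the smallest p past the threshold in each list, the members' paralogues, TBC1D7, and the 3 genes most correlated with the member of smallest p. The 4 ratios were added after values were seen. Alternatives were other scalings, filters, DESeq2 1.42.0, limma 3.58.1 (voom, and log2 of the deposited signal plus 1), thinned counts, a threshold of 0.01, each library left out, a replicate block, and a length and GC correction, for which 95.8% of tested genes had a transcript.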

Additional observations from a re-analysis of the deposited data

How the results depend on the processing

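MTOR passed under all 19 alternatives (log2 fold change 0.23 to 0.31, adjusted p at most 0.00165). Against 1 member called higher, 2 were with DESeq2 size factors or limma on the deposited values, and 3 (RICTOR and RHEB added) with no low-count filter or after the length and GC correction, with or without the replicate block. Against 1 called lower (TSC1), 0 were with DESeq2's Wald test, limma on the deposited values, no low-count filter, thinned counts, an adjusted p of 0.01, or the length and GC correction with or without the block. With the replicate block alone, TSC1 had a log2 fold change of -0.16 and an adjusted p of 0.059, so 0 were called lower; in all, 4862 genes passed against 5329. The replicate numbers are only shared in the titles: deviations of same-numbered libraries correlated at 0.045, -0.011 and -0.098, and not every library correlated best with its own number. Leaving out each library gave 1 to 2 higher and 0 to 1 lower members, and 7 to 10 lower pathway genes against 12. Over all genes, 4319 to 5256 passed in those fits, against 5329. Lower pathway genes numbered 6 with DESeq2's Wald test or an adjusted p of 0.01, where 3559 and 3714 of all genes passed. They numbered 20 with library size alone and 19 with upper-quartile factors. Over all genes, 40.8% and 43.9% of calls were higher under these scalings, against 50.2% in the main fit. The median shift of the log2 fold change from the main fit was -0.031 and -0.021 over all genes. The cause of the changed pathway counts was not tested. Members close to 0, none past the threshold, changed sign in places. MLST8 was at 0.002 with the Wald test, 0.0005 with limma on the deposited values and 0.0058 without the filter, TSC2 at 0.0045, 0.0055 and 0.007 in the same order, and DEPTOR at 0.0559 in thinned counts. With each library left out, log2 fold changes ran from -0.0322 to 0.0225 for MLST8, -0.3668 to 0.0426 for DEPTOR, -0.0188 to 0.0249 for TSC2, -0.066 to 0.0009 for EIF4EBP1 and -0.0651 to 0.0136 for RPS6KB1. Of 493 values for the 26 other named genes, 461 kept their direction and side of the threshold, 32 lost the call and 0 changed sign. Depth limits DEPTOR and INPP4B, at about 20 counts a library.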

Other observations

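Genes whose products hold mTORC1 back were regrouped from the members and lists after their values were seen: the complex-bound inhibitors, the TSC complex, REDD1 and its relative, GATOR1, KICSTOR, the sestrins, the CASTOR proteins and SAMTOR. Of these 20 genes 18 were tested, 5 were lower (AKT1S1, TSC1, DDIT4, NPRL3 and SESN2) and 3 were higher (SESN3, CASTOR2 and BMT2, the symbol of SAMTOR in the count table), with a median log2 fold change of -0.048. Over all tested genes 38.5% passed, 19.2% lower and 19.3% higher, so these counts lie near the background. CASTOR2, part of an arginine sensor, was at 21.5 ± 2.24 CPM in control cells and 26.5 ± 1.84 in knockdown cells, and BMT2, part of the sensing of S-adenosylmethionine, at 11.7 ± 0.269 and 14.5 ± 0.535 CPM (SD, n = 3 per group). Both passed in edgeR, with adjusted p-values of 0.00551 and 0.00871. The regrouping was made on these values, so it carries no test, and the genes did not share 1 direction.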
